A study of Mus musculus with 2 samples.

Results

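Insulin-rich beta cells were the barcodes in which the 2 insulin genes, Ins1 and Ins2, held at least 5% of the unique molecular identifiers (UMIs, each a counted transcript molecule) and more UMIs than Gcg, Sst or Ghrl, the other islet hormone genes. Barcodes also needed at least 500 detected genes and at most 10% of UMIs from mitochondrially encoded genes. The rule found 205 cells among 5890 barcodes that passed the gene and mitochondrial limits, and among 8765 barcodes in all. The cells came from whole pancreas of C57BL/6 mouse embryos at embryonic day 18.5, dissociated in 0.25% trypsin for 20 minutes and prepared as 1 control library and 1 library labelled knockout, with the 10x Genomics 3′ kit, version 2. Handling differed in 1 recorded step: the control cells were taken up in 500 µL and those labelled knockout in 250 µL, and 17.4 µL of each was loaded. The series names the knockout Dpy30∆P. Dpy30 is a core subunit of the TrxG (COMPASS) complexes that methylate lysine 4 of histone H3, and the series addresses what these complexes do as pancreas progenitors are specified and differentiate. Which recombinase driver was used, which part of Dpy30 was deleted and how many embryos went into a library: not given in the sources used here. Members numbered 157 in the control library, with 2563288 UMIs, and 48 in the library labelled knockout, with 614193 UMIs.

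With 1 library per group there was no test across animals, and every interval below is a 95% interval that covers counting error only. PCR duplicates were removed by the UMIs, but cells of 1 library share their animal and their handling. Xist, transcribed from the inactive X chromosome, had 0 UMIs in control members and 1098 in members labelled knockout, while Y-linked Ddx3y had 113 and 0. The sex of the embryos and the genotype therefore cannot be told apart. Members were shallower in the library labelled knockout, with a median of 10590.5 UMIs per cell (quartiles 7145 and 15502) against 15067 (11425 and 20457) in control, and a median of 2714.5 against 3024 detected genes. Barcode sequences present in both libraries numbered 27 in all, 1 of them a control member and none a member labelled knockout.

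Beta cells are the islet cells that make, store and secrete insulin. Mice carry an ancestral insulin gene, Ins2, and a retroposed copy, Ins1. Preproinsulin enters the endoplasmic reticulum (ER), is folded there, and is cut to insulin by prohormone convertases inside dense-core granules that also hold islet amyloid polypeptide (Iapp). Glucose enters through GLUT2, encoded by Slc2a2, and the beta cell identity is held by transcription factors such as Pdx1, Nkx6-1 and Mafa. At the end of gestation beta cells are hormone-filled but immature in their response to glucose.

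The bases before the transcription start sites of 4 genes whose levels carry the results below are given from RefSeq, build GRCm38.p6, as the 250 bases upstream on the plus strand. Capitals mark TAAT on either strand, the core bound by homeodomain factors such as Pdx1 and Nkx6-1, and CANNTG, the E box bound by basic helix-loop-helix factors such as Neurod1, which reads the same on both strands. No TAAT match overlapped a CANNTG match, and 1 pair of TAAT matches in the Iapp sequence overlapped each other. Ins2 had no entry among the promoter sequences.
Ins1, chr19:52264047-52264296: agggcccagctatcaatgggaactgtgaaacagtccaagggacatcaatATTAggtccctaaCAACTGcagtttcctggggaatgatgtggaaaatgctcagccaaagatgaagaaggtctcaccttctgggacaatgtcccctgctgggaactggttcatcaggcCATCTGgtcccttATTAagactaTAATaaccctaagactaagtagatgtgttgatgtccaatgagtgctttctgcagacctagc
Iapp, chr6:142298175-142298424: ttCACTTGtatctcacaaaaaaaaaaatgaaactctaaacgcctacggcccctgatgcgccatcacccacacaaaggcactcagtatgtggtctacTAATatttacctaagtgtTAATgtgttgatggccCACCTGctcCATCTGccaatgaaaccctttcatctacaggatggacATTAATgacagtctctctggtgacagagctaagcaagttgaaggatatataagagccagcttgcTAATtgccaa
Slc2a2, chr3:28697653-28697902: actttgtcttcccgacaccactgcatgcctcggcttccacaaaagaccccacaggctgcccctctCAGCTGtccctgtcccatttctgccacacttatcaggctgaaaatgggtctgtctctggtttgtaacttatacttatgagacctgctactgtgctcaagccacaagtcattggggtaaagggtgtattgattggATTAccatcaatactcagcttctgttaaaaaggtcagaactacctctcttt
Nnat, chr2:157559828-157560077: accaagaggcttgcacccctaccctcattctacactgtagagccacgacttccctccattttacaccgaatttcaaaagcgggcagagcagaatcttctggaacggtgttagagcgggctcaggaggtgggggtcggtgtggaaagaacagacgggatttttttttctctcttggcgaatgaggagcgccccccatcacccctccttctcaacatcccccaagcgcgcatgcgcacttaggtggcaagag
The Ins1 sequence held 3 TAAT and 2 CANNTG matches, Iapp 5 and 3, Slc2a2 1 of each, and Nnat 0 of each. Of 32851 promoters of the same length, 54.9% held TAAT and 66.2% held CANNTG, so these letters are common. CG dinucleotides, where DNA methylation is placed, numbered 12 in the Nnat sequence, 3 in Iapp, 2 in Slc2a2 and 0 in Ins1, against a median of 6 over all promoters.

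Insulin-rich cells took up a smaller part of the library labelled knockout. They were 157 of 2633 kept barcodes in control, 5.96% (Clopper-Pearson interval 5.09 to 6.94%), and 48 of 3257 in the library labelled knockout, 1.47% (1.09 to 1.95%), a ratio of 0.247 (Katz interval 0.180 to 0.340). All hormone-rich barcodes together, those led by insulin, glucagon, somatostatin or ghrelin at 5% of UMIs or more, were lower by a like amount, 8.58% against 2.30% (ratio 0.268, 0.208 to 0.347). Within the hormone-rich barcodes, insulin-rich cells made up 69.5% in control (157 of 226) and 64.0% in the library labelled knockout (48 of 75), a ratio of 0.921 with an interval of 0.761 to 1.11 that includes 1. The other hormone-rich barcodes were 42 and 14 led by Gcg, 18 and 10 by Sst, and 9 and 3 by Ghrl. The threshold lay in a sparse range: 4 and 4 barcodes held 4 to 5% insulin, and 0 and 1 held 5 to 6%.

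Cells above the threshold also held less insulin RNA. The insulin genes took a median of 33% of a control member's UMIs (quartiles 24.3 and 42.3%) and 21.6% in the library labelled knockout (13.4 and 33.2%). Below 20% insulin lay 25 of 157 control members and 23 of 48 members labelled knockout, and at 40% or more lay 48 and 6. Because the rule selects on insulin, these values are a description. Mesenchymal barcodes, used below as background, were those with at least 1% of UMIs from Col1a1, Col1a2 and Col3a1 and under 1% from insulin. Their highest insulin share was 0.305% in control and 0.219% in the library labelled knockout. Because the definition caps that share, it does not measure free insulin RNA against the threshold.

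The balance of Ins1 and Ins2 was spread more widely over the cells of the library labelled knockout. Summed over members, Ins1 made up 32.1% of insulin UMIs in control and 31.9% in the library labelled knockout. Per cell, however, the share of Ins1 ran from 0.446 to 54.7% in control (quartiles 24.7 and 37.8%) and from 1.06 to 97.4% in the library labelled knockout (20.2 and 47.6%). Ins1 made up 60% or more of insulin UMIs in 0 of 157 control members, which allows a share of up to 1.91%, and in 8 of 48 members labelled knockout, 16.7% (7.48 to 30.2%). All 8 held under 20% insulin, where the count was 0 of 25 in control and 8 of 23 in the library labelled knockout. Cells at the opposite end, with Ins1 under 10% of insulin UMIs, were present in both, 9 of 157 and 5 of 48. The 60% limit was chosen after the values were seen.

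**Figure D1:**
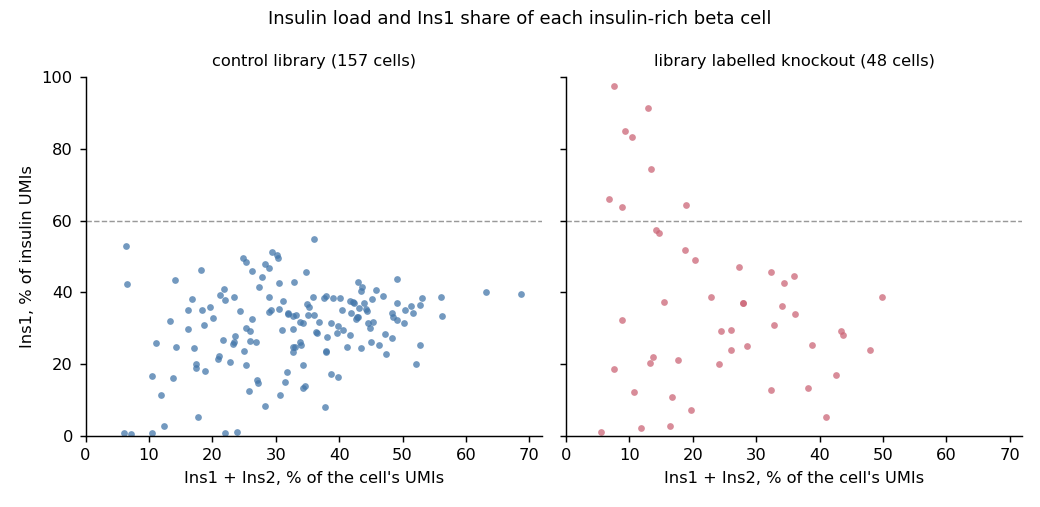
Each point is 1 insulin-rich beta cell: the horizontal axis is the percent of the cell's UMIs from Ins1 and Ins2, the vertical axis the percent of those insulin UMIs from Ins1, and the dashed line marks 60%. No control cell (left, 157 cells) lies above the line, and 8 of 48 cells of the library labelled knockout (right) do, all below 20% insulin.

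The 8 Ins1-led cells differed from the other 40 members labelled knockout in several beta cell genes, given here as a description because the cells were picked by their values. They held 6.75 to 18.99% insulin from 407 to 1865 insulin UMIs each, 6033 to 9819 UMIs in all and 2278 to 2848 detected genes, and none was called a doublet. Slc2a2 had 0 UMIs over the 8 cells, under a limit of 56.6 CPM, against 156 CPM in the other 40 (CPM is counts per 1000000 UMIs, with the 5 hormone genes of the rule left out of the total). Nnat was at 604 against 3952 CPM, with no UMI in 6 of the 8 cells and in 3 of the other 40. Iapp was at 23873 against 55398 CPM, and Cryba2, a crystallin gene expressed in islet cells, at 18.9 against 390.4 CPM with UMIs in 1 of the 8. Ppy, the pancreatic polypeptide gene, was higher, 7473 against 1441 CPM, with UMIs in all 8. The identity factors were at like levels: Pdx1 at 339.7 against 272 CPM and Nkx6-1 at 302 against 287 CPM, with Nkx6-1 UMIs in 6 of the 8. The other 40 include 25 cells of 20% insulin or more. Set against the 15 others under 20% insulin, where Iapp was at 34141, Nnat at 3020, Slc2a2 at 95.01 (14 UMIs), Cryba2 at 258 and Ppy at 1025 CPM, the gaps were smaller for all of these but Ppy. Chga was at 1887 CPM in the 8 and 1181 CPM in those 15.

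The 3 marker genes that the rule did not use were present in both libraries. Iapp, the amyloid peptide co-stored with insulin, had UMIs in all 205 members, at 55891 CPM in control and 51686 CPM in the library labelled knockout (ratio 0.925, 0.912 to 0.938). This direction turned with the make-up of the cells: the Iapp ratio was 1.15 among members with 20% insulin or more, 1.14 with both libraries weighted to the same insulin shares, and 1.03 with all UMIs as the total. Nkx6-1, a homeodomain factor that keeps beta cells from other islet fates, was at 342 and 289 CPM (ratio 0.845, 0.693 to 1.02), with UMIs in 86.6% and 87.5% of members. Slc2a2, the glucose transporter, was at 356 and 138 CPM (ratio 0.387, 0.293 to 0.503). A UMI of Slc2a2 was present in 84.7% of control members and 47.9% of members labelled knockout. After thinning every cell to 3000 UMIs, which left out 4 shallower control members and none labelled knockout, those shares were 47.1% and 27.1%, against 0.2% of mesenchymal barcodes in each library.

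Slc2a2 did not differ evenly over the insulin range. At 10 to 20% insulin it was at 325 CPM (83 UMIs) in control and 63 CPM (9 UMIs) in the library labelled knockout, a ratio of 0.193 (0.0853 to 0.384). At 20 to 40% the ratio was 0.416 (0.272 to 0.612), and at 40% or more it was 0.839 (0.5003 to 1.33), an interval that includes 1. Counts of 2 and 5 UMIs at 5 to 10% insulin gave no usable ratio.

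**Figure D2:**
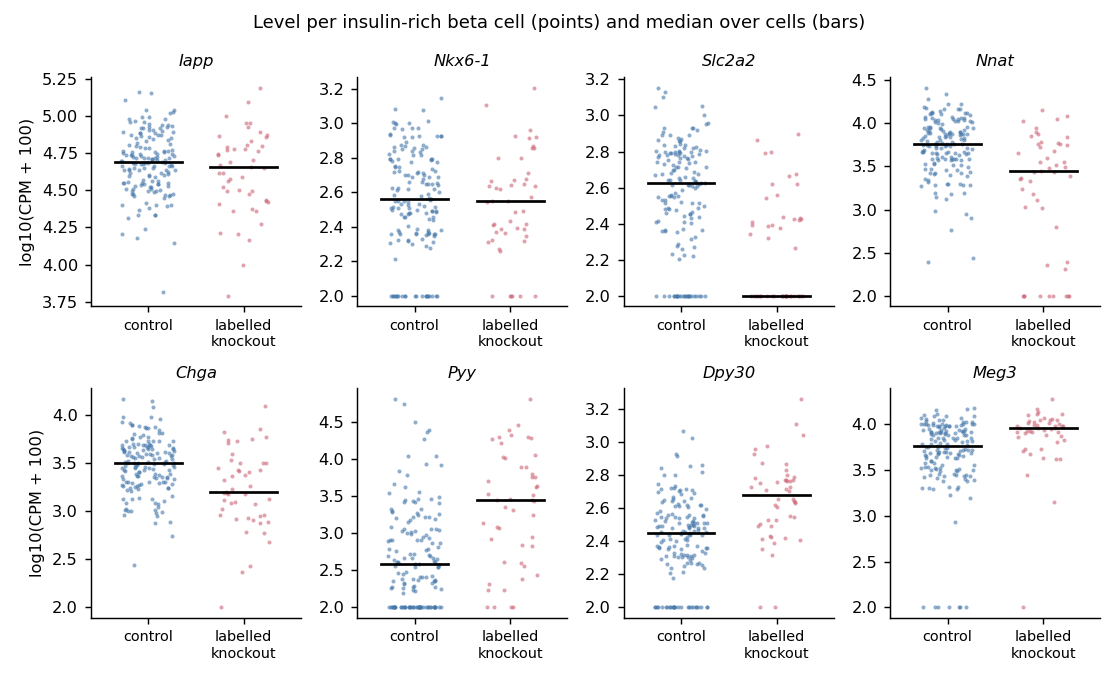
Each point is 1 insulin-rich beta cell, with log10(CPM + 100) on the vertical axis and a separate scale for each gene; bars are medians over the 157 control cells and the 48 cells of the library labelled knockout. The median of Slc2a2 is 0 in the library labelled knockout and 321 CPM in control, while the points of all 8 genes overlap between libraries.

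Over all genes, most values were close between the libraries. Of 3033 genes with at least 100 UMIs over all members (called measured below), 25 were at least 2-fold higher in the library labelled knockout, 0.824%, and 40 at least 2-fold lower, 1.32%. At any size 51.3% of genes were higher and 48.7% lower, with a median log2 ratio of 0.01. Whole counting intervals lay above 1 for 9.73% of genes and below 1 for 10.0%. Of the 25 higher genes 2 belonged to classes left aside (haemoglobin, mitochondrial, ribosomal, sex-linked markers and unnamed models). Another 8 had over 5 times the level in barcodes that were not hormone-rich, or moved alike in mesenchymal barcodes, and 15 remained. Of the 40 lower genes these numbers were 8, 9 and 23. Slc2a2 was 1 of the 9, by its movement in mesenchymal barcodes.

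The 12 genes named for being highest in the library labelled knockout had ratios from 1.67 to 6.22. Pcp4, a small calmodulin-binding protein, had the largest ratio, 6.22 (4.16 to 9.4), from 24.3 to 151 CPM, with UMIs in 22 of 157 and 26 of 48 members. By insulin share the Pcp4 ratio was 0.812 (0.258 to 2.77) at 5 to 10%, 8.19 (4.08 to 18.2) at 10 to 20% and 2.4 (1.1 to 4.95) at 20 to 40%. Cdkn1a, a cyclin-dependent kinase inhibitor, was at 48 and 136 CPM (ratio 2.82, 1.99 to 3.99), with UMIs in 40 of 157 and 16 of 48 members and 29.5% of the UMIs labelled knockout in 1 cell, and its ratio at 20 to 40% insulin was 1.25 (0.603 to 2.38). Elp4, an Elongator subunit (ratio 2.42), Soat1, which esterifies cholesterol (2.22), Runx1t1, a transcriptional corepressor (2.03), Ckb, a creatine kinase (2.01), and Pik3r1, a regulatory subunit of PI3-kinase (1.95), each had a counting interval above 1. Ogt, which attaches O-GlcNAc to proteins (2.26), and Sms, spermine synthase (2.14), lie on the X chromosome. Ier2, an immediate early gene, had a ratio of 1.67 (1.44 to 1.95).

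The 12 genes named for being lowest in the library labelled knockout, after the exclusions of the naming rule, had ratios from 0.273 to 0.545. Slc2a2 and Nnat were left out because they moved alike in mesenchymal barcodes, where Slc2a2 had UMIs in only 3 of 534 and 2 of 652. Lpl, lipoprotein lipase, was at 130.4 and 35.6 CPM (ratio 0.273, 0.153 to 0.453), and Hacd1, a dehydratase of very-long-chain fatty acid synthesis, at 172 and 48.9 CPM (ratio 0.283, 0.175 to 0.437). Cox6a2, a cytochrome oxidase subunit with 0 UMIs in the glucagon-rich and somatostatin-rich barcodes of both libraries, was at 129 and 40 CPM (ratio 0.31, 0.18 to 0.501), with UMIs in 61 of 157 and 8 of 48 members. Fkbp11, a prolyl isomerase of the ER, was at 268 and 104 CPM (ratio 0.39, 0.282 to 0.527), and Selm, an ER selenoprotein, at 327 and 149 CPM (ratio 0.455, 0.348 to 0.587). Scly, which releases selenium from selenocysteine, had a ratio of 0.358. Fmo1, a flavin mono-oxygenase (0.394), Bpnt1, a nucleotidase (0.397), and Krt18, a keratin of simple epithelia (0.545), were also lower, as were the BDNF receptor Ntrk2 (0.318), the activity-dependent factor Npas4 (0.309) and secreted Lgi2 (0.344), which rest on 10, 8 and 9 UMIs in the library labelled knockout. At 20 to 40% insulin the ratios of Lpl, Scly, Lgi2 and Npas4 were nearer 1 (0.53, 0.587, 0.624 and 0.468), and after thinning those of Fmo1, Cox6a2 and Npas4 were (0.814, 0.537 and 0.93).

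**Figure D3:**
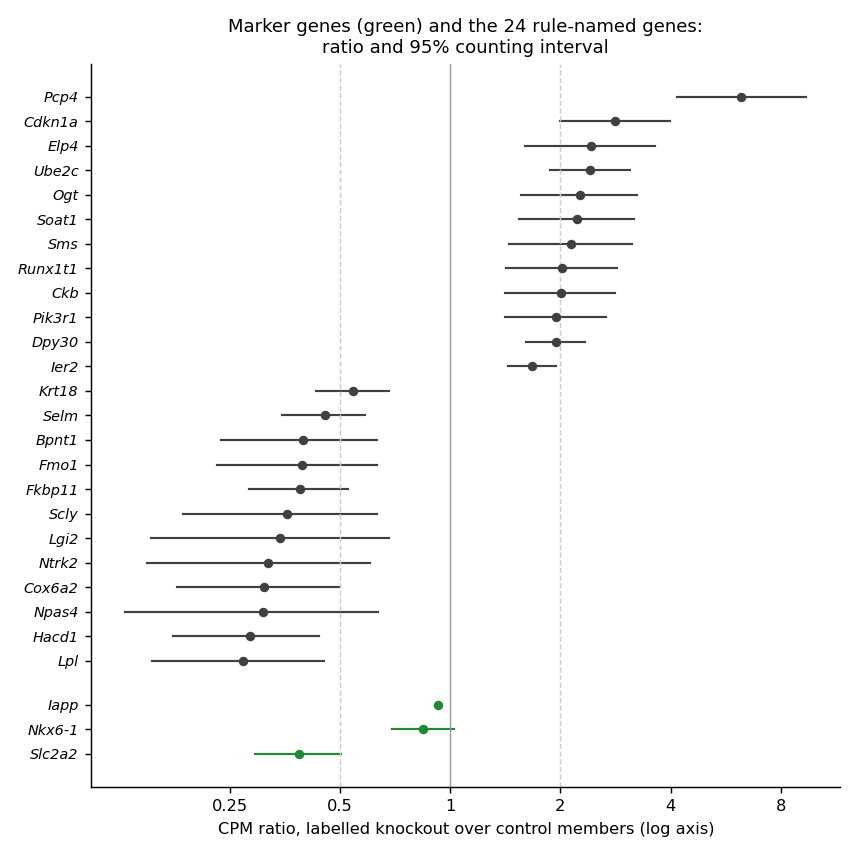
Points are CPM ratios of members labelled knockout over control members on a log axis, with lines for the 95% counting interval; green marks the 3 beta markers and grey the 24 rule-named genes, and dashed lines mark 2-fold. Pcp4 lies farthest to the right, and of the markers Slc2a2 alone lies past the 2-fold line.

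The transcription factors that define beta cells were at similar levels in both libraries. Of 16 measured factors 11 were higher and 5 lower, with a median log2 ratio of 0.11, and none was past 2-fold. Pdx1, the factor for pancreas and beta cell identity, was at 240.0 and 280.0 CPM (ratio 1.17, 0.947 to 1.43), Neurod1 at 465 and 502 CPM (1.08), Pax6 at 511 and 504 CPM (0.987) and Nkx2-2 at 219 and 199.99 CPM (0.914). Isl1 (1.25, 1.03 to 1.5) and Ssbp3, an Isl1 cofactor (1.51, 1.05 to 2.13), had intervals above 1. Mafa, the large Maf factor of mature beta cells, had 0 UMIs in the members of both libraries, under limits of 1.78 and 6.67 CPM. Whether the 3′ end of its transcript was captured was not tested, so the 0 does not show that the gene was off.

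Genes of glucose sensing and beta cell maturation were lower on balance, and by less in cells with more insulin. At matched insulin share the ratios of the list's summed CPM were 0.473, 0.706, 0.805 and 0.910 from the lowest band to the highest. Of 24 measured members of the list 16 were lower and 8 higher, with a median log2 ratio of −0.24 against 0.01 over all genes; 10 counting intervals lay below 1 and 2 above, and 3 genes were at least 2-fold lower. Beside Cox6a2 and Slc2a2 these were Trpm5, a calcium-activated cation channel (ratio 0.469). Nnat, neuronatin, an imprinted ER membrane protein that aids preproinsulin processing, was the most abundant member, at 7015 and 3558 CPM (0.507, 0.481 to 0.534). Prlr, the prolactin receptor (0.502), G6pc2, the islet glucose-6-phosphatase (0.583, 0.476 to 0.71), and Slc30a8, the granule zinc transporter (0.692), were lower too. Abcc8, the sulfonylurea receptor, had a ratio of 1.16 with an interval of 0.933 to 1.42 that includes 1. Dlk1, a Notch-like ligand, was higher, 1290 and 1938 CPM (1.5, 1.39 to 1.63).

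Nnat also differed in how many cells held it. Each of the 157 control members held at least 1 Nnat UMI, which allows a share without it of up to 1.91%, while 9 of 48 members labelled knockout held none, 18.8% (8.95 to 32.6%), in cells of 5355 to 13656 UMIs. After thinning to 3000 UMIs, Nnat was present in 98.7% of control members and 75% of members labelled knockout, against 11.6% and 4.4% of mesenchymal barcodes. The Nnat ratio was below 1 in every band of insulin share, 0.224 (0.165 to 0.301) at 5 to 10% insulin, 0.555 (0.496 to 0.621) at 10 to 20%, 0.588 (0.547 to 0.632) at 20 to 40% and 0.664 (0.586 to 0.75) at 40% or more.

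Granule and prohormone-processing genes were split. Of 28 measured, 19 were lower and 9 higher (median log2 −0.18), with 12 intervals below 1 and 4 above. Summed CPM of the list, in which abundant genes weigh most, had ratios of 1.18, 0.832, 1.12 and 1.38 from the lowest band of insulin share to the highest. Pcsk1, the convertase that starts proinsulin cleavage, was at 314 and 173 CPM (ratio 0.552, 0.429 to 0.701), while Pcsk2, its partner, was at 3623 and 3580 CPM (0.988, 0.935 to 1.04). The granins Chga (3925 and 2440 CPM, ratio 0.622, 0.583 to 0.663) and Chgb (0.742, 0.677 to 0.813) were lower, and Scg2, another granin, was at 1.17 (1.07 to 1.27). For Chga the ratio was 0.424 (0.361 to 0.498) at 10 to 20% insulin and 0.654 (0.594 to 0.719) at 20 to 40%. It was 1.27 (1.12 to 1.42) among the 48 and 6 cells at 40% or more. In that band 1 of the 6 cells labelled knockout was at 12539 CPM of Chga, and the others ran from 132 to 5525 CPM. Npy, neuropeptide Y, was at 1960 and 1244 CPM (0.635, 0.58 to 0.695), and its direction turned in members of 20 to 40% insulin, where the ratio was 1.04.

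The other islet peptides of the list were higher. Pyy, peptide YY, was at 3294 and 7540 CPM (ratio 2.29, 2.19 to 2.39), with UMIs in 112 of 157 and 44 of 48 members, and its median per cell was 289 against 2727 CPM. Ppy was at 429.7 and 2151 CPM (ratio 5.01, 4.54 to 5.52), with UMIs in 59 of 157 and 29 of 48 members. At least 20 UMIs of Pyy lay in 27 of 157 and 24 of 48 members, and at least 20 of Ppy in 10 of each. The 3 richest cells held 56.2% of Pyy UMIs and 52.3% of Ppy UMIs in control, and 39.3% and 53.8% in the library labelled knockout. The size of both differences varied with the insulin share. For Pyy the ratio was 1.72 at 5 to 10% insulin, 1.01 (0.931 to 1.1) at 10 to 20%, 1.81 (1.7 to 1.92) at 20 to 40% and 28.8 at 40% or more, where 6 cells labelled knockout were compared. For Ppy it was 48.4 (16.4 to 236, from 3 control UMIs), 3.94, 1.6 (1.32 to 1.93) and 15.9 over the same bands. At 3000 UMIs per cell Pyy was present in 45.8% of control members and 81.2% of members labelled knockout, against 4.2% and 1.9% of mesenchymal barcodes, and Ppy in 18.95% and 45.8%, against 1.6% and 1.1%.

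ER folding and translocation genes were lower almost as a block. Of 34 measured, 33 were lower and 1 higher, with 24 intervals below 1, 0 above and none past 2-fold, and a median log2 ratio of −0.29. The abundant translocon subunits Sec61b (3284 and 2844 CPM, ratio 0.866, 0.814 to 0.921) and Sec61g (0.829, 0.774 to 0.887) stood near the top of the range. Chaperones stood lower: Hspa5, which encodes BiP, at 1385 and 1051 CPM (0.759, 0.686 to 0.838), Hsp90b1, or GRP94, at 0.712 (0.652 to 0.776), the disulfide isomerase Pdia6 at 0.663 (0.587 to 0.747), Creld2 at 0.655, Dnajc3 at 0.648 and Hyou1 at 0.627 (0.437 to 0.88), whose direction turned in members of 20 to 40% insulin (1.02, 0.619 to 1.6). Manf, a secreted ER stress factor, was at 0.822 (0.743 to 0.908). The summed CPM of the list was higher in cells with more insulin, 19379 at 5 to 10% insulin and 31635 at 40% or more in control, and 14354 and 26743 in the library labelled knockout. At matched insulin share the ratios of these sums were 0.741, 0.860, 0.912 and 0.845 from the lowest band to the highest. Over all members the sums were 26677 and 21337 CPM.

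The regulators of the unfolded protein response gave mixed directions. Of 8 measured, 3 were higher and 5 lower (median log2 −0.04). Xbp1, the factor that drives ER chaperone genes, was at 181 and 160.0 CPM (0.882, 0.673 to 1.14), and Atf4 at 0.949 (0.706 to 1.26). Both intervals include 1 and also the ratio of Hspa5, so they do not set these genes apart from the chaperones. At matched insulin share the ratios of the list's summed CPM were 0.866, 1.16, 0.874 and 0.690 from the lowest band to the highest. Of the 8, Fkbp11, an ER prolyl isomerase counted in this list, alone had a whole interval below 1. Ppp1r15a, which restarts translation, was at 1.58 (1.1 to 2.23) but at 0.866 after thinning to 3000 UMIs.

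**Figure D4:**
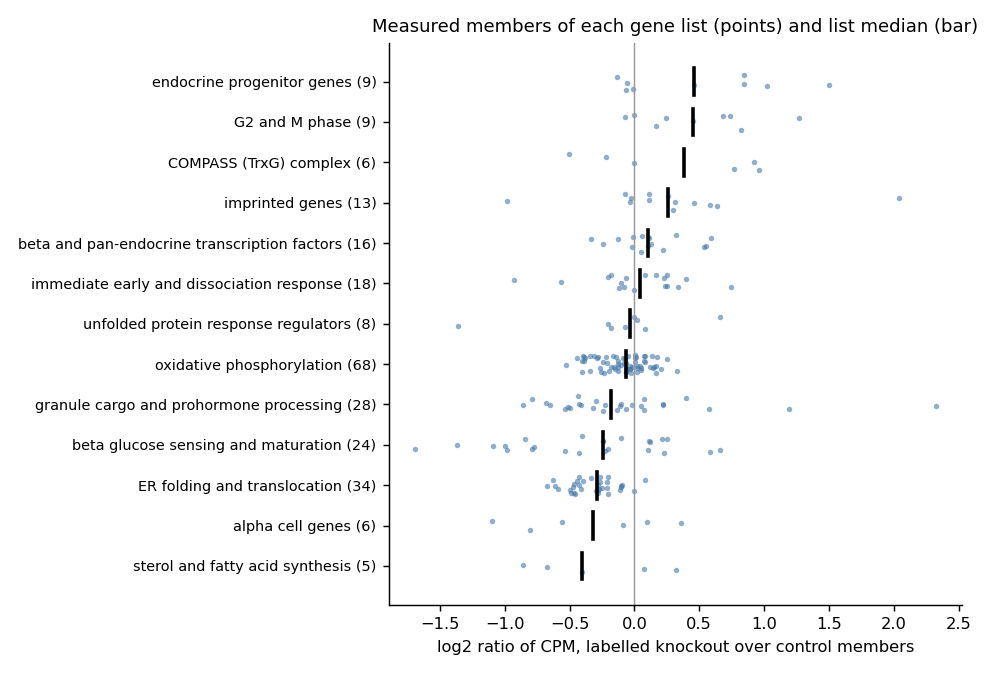
Each point is a measured gene of a list, placed by its log2 ratio of CPM in members labelled knockout over control members; bars are list medians and the number measured is in brackets, for lists with at least 5 measured genes. The ER folding genes lie almost wholly left of 0, around their median of −0.29.

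**Figure D5:**
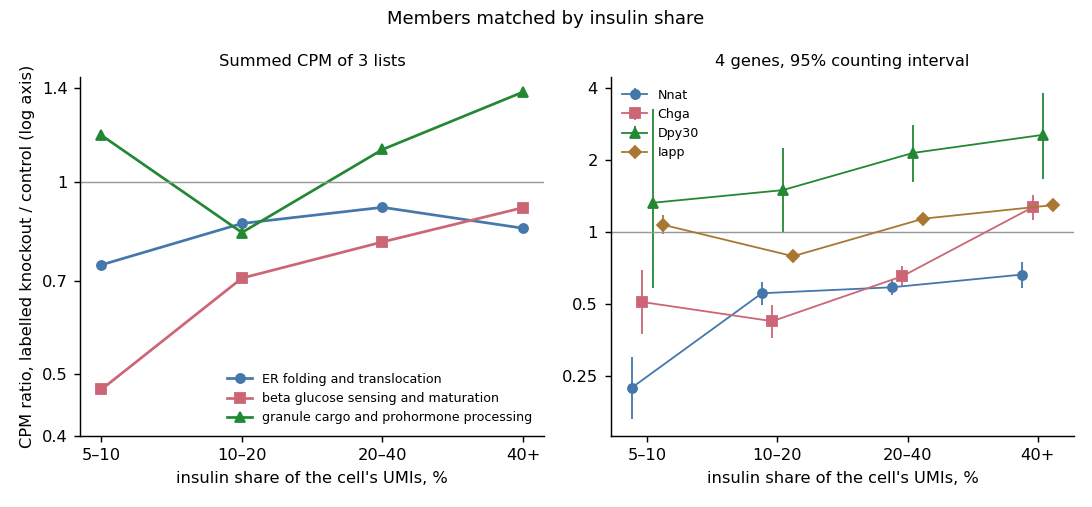
Ratios of members labelled knockout over control members within bands of insulin share (log axis): left, summed CPM of 3 gene lists without intervals; right, 4 genes with 95% counting intervals, over 4, 21, 84 and 48 control cells and 7, 16, 19 and 6 cells labelled knockout. Nnat lies below 1 in every band, and Iapp and Chga lie above 1 at 40% insulin or more. In that band 1 of the 6 cells labelled knockout was at 12539 CPM of Chga, and the others ran from 132 to 5525 CPM.

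Genes of the endocrine progenitor stage had few UMIs in the members. Of 9 measured 5 were higher and 4 lower (median log2 0.46). Beside Cdkn1a and Runx1t1 the higher ones included Sox4 (ratio 1.79, 1.4 to 2.29), which acts in islet differentiation, and Gadd45a (1.8, 1.25 to 2.56), a growth-arrest gene whose direction turned among members with 20% insulin or more, where the ratio was 0.811. Below the 100 UMI limit, Neurog3, the factor that commits cells to the endocrine fate, had 7 and 36 UMIs (ratio 19.3, 8.46 to 51.3), in 5 of 157 and 7 of 48 members, with 27 of the 36 in 1 cell. Fev, a factor of endocrine precursors, had 28 and 17 UMIs (ratio 2.28, 1.17 to 4.31), in 26 of 157 and 15 of 48 members. At 3000 UMIs per cell these shares were 1.31% and 6.25% for Neurog3 and 3.27% and 6.25% for Fev, and 0 in the mesenchymal barcodes of both libraries. Insm1 was at 228 and 227 CPM (0.993).

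Cell cycle genes rested on a handful of cells. Of 9 measured G2 and M phase genes 7 were higher and 2 lower (median log2 0.45), but 5 cells held 89.96% of the list's UMIs in the library labelled knockout and 51.3% in control. Ube2c, of the anaphase-promoting pathway, had a ratio of 2.41 (1.87 to 3.09), but 0.9005 after thinning, with UMIs in 23 and 7 members, and without the richest cell of each library and gene the list's median was −0.02. The 3 measured S phase genes were lower, Slbp at 0.668 (0.409 to 1.05), Pcna at 0.689 and Rfc2 at 0.744, with 0 intervals below 1. The 4 measured p53 target genes were all above 1 with a median log2 of 0.29: Cdkn1a, Btg2 (1.32, 1.15 to 1.5), Ei24 and Bax (1.07, 0.856 to 1.32). At 20 to 40% insulin the ratios were 1.25 for Cdkn1a, 0.913 (0.725 to 1.14) for Btg2 and 0.885 (0.613 to 1.25) for Bax. The other bands differed from this one. Summed CPM of the p53 list had ratios of 1.45, 1.71, 0.935 and 1.34 from the lowest band of insulin share to the highest.

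Dpy30, the targeted gene, was higher and not lower in the library labelled knockout, 209 and 407 CPM (ratio 1.94, 1.62 to 2.33), with UMIs in 131 of 157 and 46 of 48 members. A 3′ tag counts transcripts by their end, so a tag outside the deleted part does not check the deletion. The Dpy30 ratio was 1.47 (0.898 to 2.35) in glucagon-rich, 1.66 (0.835 to 3.33) in somatostatin-rich and 1.07 (0.917 to 1.26) in mesenchymal barcodes. Of the other complex members measured, Kmt2c (1.89, 1.32 to 2.68) and Setd1b (1.7, 1.1 to 2.58), 2 of the methyltransferases, had intervals above 1, while Kmt2a was at 0.706 (0.458 to 1.05); 3 of 6 were higher and 3 lower. The 3 measured Polycomb-related genes, Rbbp4 (1.09), Rbbp7 (0.968) and Kdm6b (1.05), had intervals that include 1.

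Imprinted genes showed no common direction, with 9 of 13 higher (median log2 0.26). Meg3, a maternally expressed long noncoding RNA, was at 5969 and 8224 CPM (ratio 1.38, 1.33 to 1.43) against Nnat at 0.507, and H19 at 4.11 had 48.1% of its UMIs labelled knockout in 1 cell and a ratio of 0.595 among members with 20% insulin or more. Immediate early and dissociation genes were 9 higher and 9 lower of 18 (median log2 0.04), Fos at 1.26 (0.981 among members with 20% insulin or more), Hspa8 at 0.943 and Hspa1a at 0.524 (0.334 to 0.793). Oxidative phosphorylation genes were 24 higher and 44 lower of 68 (median log2 −0.07, but 0.09 with all UMIs as the total), with Uqcrc1 at 0.734, Ndufs1 at 0.693, Cox8a at 0.958 and Atp5l at 1.01. Sterol and fatty acid synthesis genes were 2 higher and 3 lower of 5 (median log2 −0.40), Scd2 at 0.551 (0.331 to 0.874), Sqle at 0.625 and Acly at 1.05. Of the genes kept low in mature beta cells, 2 of 22 were measured, Dnmt3a at 1.09 (0.896 to 1.32) and Oat at 0.708 (0.395 to 1.2).

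Defining factors of the other islet classes were low in the members of both libraries. Irx2, an alpha cell factor, was at 2.37 CPM in control members and 8.89 CPM in members labelled knockout, from 4 UMIs in each, against 221 and 229 CPM in the glucagon-rich barcodes. Hhex, the delta cell factor, was at 35.6 and 57.8 CPM in members and 838 and 725 CPM in somatostatin-rich barcodes. Of 6 measured alpha cell genes 2 were higher and 4 lower (median log2 −0.32): Ttr, transthyretin, was at 2482 and 3186 CPM (1.28, 1.21 to 1.36), Slc38a5, an amino acid transporter, at 0.573 (0.465 to 0.6997), and Tm4sf4, a tetraspan membrane protein, at 0.467 (0.367 to 0.588). Of 4 delta cell genes 2 were higher and 2 lower (median log2 −0.19), with Rbp4 at 1.05 (0.978 to 1.13), Fgd2 at 0.5999 and Bambi at 0.75. Sst, which the rule used, had 1200 and 1333 UMIs in the members, 711 and 2962 CPM. At least 20 of them lay in 5 of 157 and 5 of 48 members, and 3 cells held 73.9% and 94.5% of the Sst UMIs. Gcg reached 20 UMIs in 1 member of each library and Ghrl in 0.

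The other islet classes gave mixed directions for the same genes, over 42 and 14 glucagon-rich and 18 and 10 somatostatin-rich barcodes. Chga, lower in members, was higher in glucagon-rich barcodes, 850 and 2048 CPM (ratio 2.41, 2.002 to 2.9), and lower in somatostatin-rich ones, 935 and 462 CPM (0.494, 0.327 to 0.73). Nnat had 5 and 7 UMIs in glucagon-rich barcodes, too few to give a size. As in members, it was lower in somatostatin-rich barcodes (71 and 6 UMIs, ratio 0.126, 0.0449 to 0.289). In mesenchymal barcodes, the background, Nnat was at 60.1 and 28.1 CPM (0.468, 0.368 to 0.594). Iapp was also in fewer of those after thinning, 18.5% in control and 5.3% in the library labelled knockout. Whether these mesenchymal values are free RNA was not tested. Slc30a8 (0.364, 0.202 to 0.614) and Tm4sf4 (0.33, 0.146 to 0.659) were lower in glucagon-rich barcodes too. Pyy, higher in members, was at 12828 and 6811 CPM in glucagon-rich (0.531, 0.49 to 0.575) and 63114 and 45890 CPM in somatostatin-rich barcodes (0.727, 0.698 to 0.757). Meg3 was higher in all 3, at 1.38 in members, 1.37 (1.24 to 1.52) in glucagon-rich and 1.42 (1.3 to 1.56) in somatostatin-rich barcodes. These differences between classes were not tested, with 1 library per group.

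RNA of other cell types was present at low level and unevenly. Red cell genes summed to 9111 CPM in control and 1369 in the library labelled knockout; 5 control cells held 91.5% of those UMIs and 1 cell reached 41.5% of its own, and Hba-a1, a globin gene, was at 3003 and 264 CPM. Acinar genes summed to 442 and 1153 CPM, with Clps at 1.57 and Ctrb1 at 2.74. Ductal genes summed to 891 and 456 CPM, with Spp1 at 0.218, Clu at 0.286 and Krt7 at 0.758, and 41.8% of the control UMIs in 5 cells. Mesenchymal genes summed to 126 and 478 CPM, of which 1 cell labelled knockout held 67.9%, and Col1a1 (2.75) and Col3a1 (3.2) followed it; endothelial genes summed to 26.1 and 11.1 CPM, immune genes to 97.8 and 107 CPM (C1qa at 0.902) and Schwann and neural genes to 14.2 and 17.8 CPM. Their part in the results was not tested. Scrublet, a doublet caller, marked 22 of 2633 and 34 of 3257 barcodes, among them 2 control members and 0 labelled knockout.

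The authors' deposited table lists genes for their cluster 7, with the fraction of its cells that had a UMI. The fraction was 0.986 for Slc2a2, 0.986 for Nkx6-1, 0.996 for Nnat, 0.996 for Chga, 0.972 for G6pc2 and 0.979 for Pdx1 in the authors' deposited table. Of the 233 genes that it lists for that cluster 174 were measured in the members, and 69 of them were higher and 105 lower in the library labelled knockout (median log2 −0.11), with 1 past 2-fold higher and 6 past 2-fold lower. The authors' list was made on these libraries, so it gives no independent direction. Its fractions do not describe the members, of which 84.7% in control and 47.9% labelled knockout had a UMI of Slc2a2. For G6pc2 these shares were 80.3% and 66.7%. Which cells the authors' cluster holds was not checked.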

How the data were processed

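Single-cell RNA-seq of whole mouse pancreas at embryonic day 18.5 was analysed from the deposited gene-by-barcode matrices of raw UMI counts, which carry software version 3.0.0 in the file headers; the submitters' processing notes name Cell Ranger, Seurat 2 and 3, GRCm38 and mm10. The authors' deposited cluster table gives, as a fraction, the share of a cluster's cells with a UMI; its other columns were not used. Ambient RNA and doublets were not removed, since no source used here says that they had been. Members, gene lists and named genes were chosen with earlier results of these data known.

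UMIs were summed over members per library and scaled to counts per 1000000 UMIs (CPM) without Ins1, Ins2, Gcg, Sst and Ghrl. Ratios carry exact conditional binomial 95% intervals, shares Clopper-Pearson intervals and share ratios Katz intervals, all for counting error only; levels of 0 are read against a limit of 3 counts. No test was made, with 1 library per group. On simulated Poisson counts of 3060 genes of this comparison, intervals held the true ratio for 96.0% of unaltered genes. Of genes set 3-fold higher 99.0% passed 2-fold, and of those set 3-fold lower 95.5%. The simulated counts held no variation between cells or animals, so coverage for UMIs concentrated in few cells was not tested. Genes were named as the 12 highest and 12 lowest by the interval bound nearest 1, among genes with at least 100 UMIs, leaving out classes given in the text, genes over 5 times higher in other cells and genes with at least 50% of the log2 ratio in mesenchymal barcodes, plus the markers and, per list, the 2 with most UMIs and the 2 farthest from 1. Cryba2 and the cells led by Ins1 were chosen after their values were seen. Values of some list members are not reported here. Doublets for an alternative were called at a Scrublet score above 0.3, fixed after the automatic threshold was seen to shift with numerical rounding. There were 12 alternatives planned and 3 added after seeing the data. The software was scanpy 1.11.5 (Scrublet), pandas 2.3.3 and SciPy 1.17.1 under Python 3.11.15.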

Additional observations from a re-analysis of the deposited data

How the results depend on the processing

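No paired analysis was possible because each group has 1 library. With insulin at 20% of UMIs or more, the share of insulin-rich cells among kept barcodes had a ratio of 0.153 (0.100 to 0.234) and that among hormone-rich barcodes 0.732 (0.543 to 0.988), below 1, where the other settings kept both within their intervals. The count of genes at least 2-fold higher was 5 after thinning to 3000 UMIs, 86 and 4 at minimums of 50 and 400 UMIs, and, in alternatives chosen after seeing the data, 13 in members of 20 to 40% insulin and 15 without the member with most UMIs of the gene. The count at least 2-fold lower was 9 after thinning, 125 and 13 at the 2 minimums, and 72 without the richest member. Thinning, the 400 UMI minimum and the 20 to 40% members tested fewer genes (573, 734 and 1673); for the others the cause was not tested. The median of the maturation list lay between −0.44 and −0.05 in all settings. All UMIs as the total shifted the median of all genes to 0.17, so that oxidative phosphorylation read 0.089 and Iapp 0.042 (log2), and gave 37 genes 2-fold higher and 29 lower. Directions turned (log2) with insulin at 20% or more for Iapp (0.20), Btg2 (−0.020), Fos (−0.027), Gadd45a (−0.30), H19 (−0.75), Col3a1 (−0.57) and Col1a1 (−2.34); in members of 20 to 40% insulin for the p53 list (−0.15, from the 2 genes still measured), Iapp (0.18), Npy (0.061), Ero1lb (0.11), Hyou1 (0.023), Btg2 (−0.13), Fos (−0.00377), Gadd45a (−0.63), H19 (−0.903), Col3a1 (−0.73) and Col1a1 (−3.296); with matched insulin shares for Iapp (0.19); with equal weight per cell for Clps (−0.025); after thinning for Ube2c (−0.15) and Ppp1r15a (−0.21); and without the richest member for Col1a1 (−0.055). The causes were not tested. Of 261 list medians under an alternative 228 stayed within the main interval, as did 1466 of 1669 values of named genes. Depth limits genes under 100 UMIs, and the ratios given for Neurog3 and Fev rest on few UMIs.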
